A study of Mus musculus with 12 samples.

Results

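Chemokines are small secreted proteins that steer leukocytes along gradients, and the RNA of their genes is described here in mouse spleen and tumor samples whose labels call them natural killer (NK) cells. A gene counted as a chemokine ligand if its symbol was Ccl or Cxcl followed by a number (with a letter from a to c allowed after a Ccl number), or was Xcl1, Cx3cl1, Pf4 or Ppbp. This rule uses names only and found 38 of the 33100 genes in the count table. Of these, 27 passed the filter on low counts, which kept 16831 genes. RNA was sequenced in bulk from 4 groups of 3 libraries: tumor cKO, tumor WT, spleen cKO and spleen WT. The cKO samples carry a conditional knockout of 1 gene, and the WT samples are labelled as wild type. No label gives the strain, the age, the tumor model or the driver of the deletion. Nor is it stated that replicates are different mice, so a p-value here covers the variation among these libraries, which may be technical.

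Chemokines are sorted by the spacing of their first cysteines into CC, CXC, XC and CX3C types, and they signal through G-protein-coupled receptors on the cells they attract. In tumors, activated NK and T cells are known to secrete Ccl3, Ccl4, Ccl5 and Xcl1, while macrophages and stroma supply most attractants of monocytes, eosinophils and neutrophils. Interferon-gamma, a product of activated NK cells, induces the CXCR3 ligands.

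Library totals ranged from 9542329 to 37118494 counts. Levels below are CPM (counts scaled to a common library total, after correction for RNA composition), in the order of replicates 1, 2 and 3. Levels between genes are compared in RPKM, reads per kilobase of gene length, scaled to library size. Defining markers went against the NK label in tumor. The NK receptor gene Ncr1 was at 0.421 to 0.769 CPM in tumor cKO, 1.63 to 1.86 CPM in tumor WT, 90.8 to 154 CPM in cKO spleens and 128 to 204 CPM in WT spleens. The 12 listed macrophage markers summed to 1586, 3924 and 4471 CPM in tumor cKO (lowest, median and highest library) and to 14140, 19600 and 28620 CPM in tumor WT. Their sum was 573.5 to 740.9 CPM in cKO spleens and 321.4 to 402.2 CPM in WT spleens, and that of 10 B-cell markers was 2712 to 3154 CPM in cKO spleens and 3029 to 3443 CPM in WT spleens. Each value below is therefore that of a mixed sample, in which fewer cells of a type and less RNA per cell cannot be told apart. In some fits below, tumor cKO replicate 3 and tumor WT replicate 2 are left out together, a choice made after seeing the data. Tumor cKO replicate 3 was lowest for 20 of the 23 tested ligand genes that averaged at least 1 CPM in its group. Tumor WT replicate 2 was highest for 14 and lowest for 8 of 26. Tumor WT replicate 1 was highest for 11 and lowest for 9, so these counts do not single out replicate 2.

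**Figure D1:**
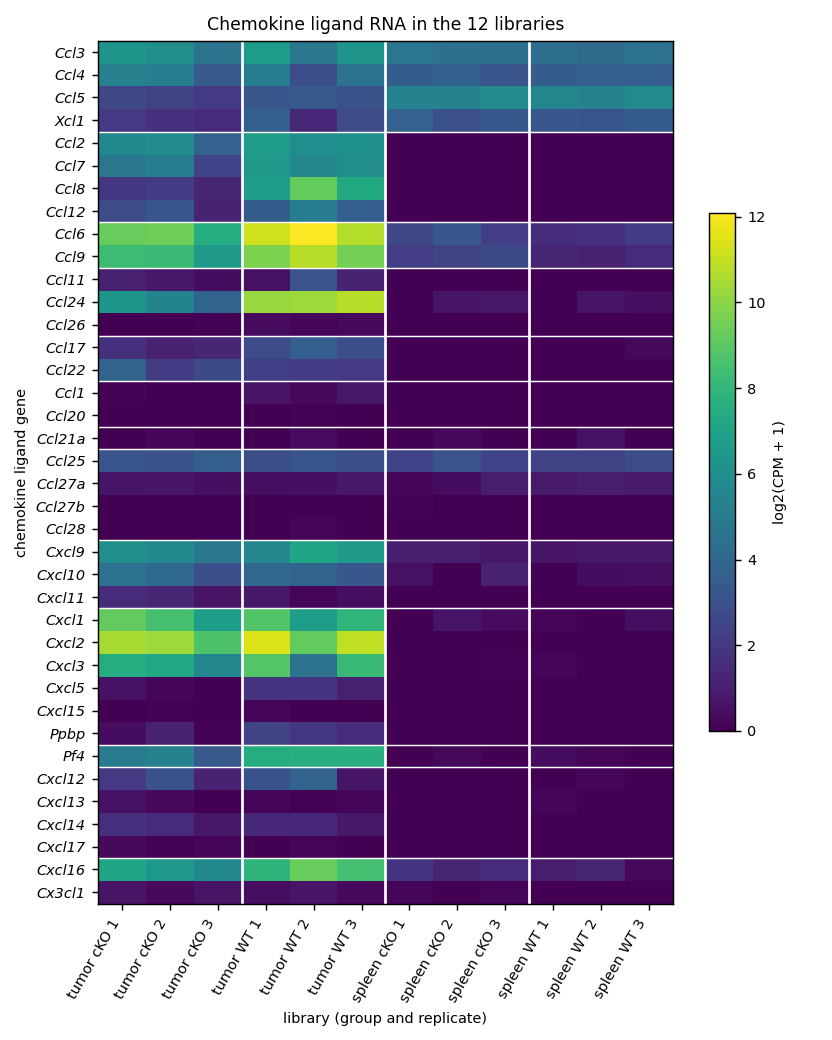
RNA level of all 38 chemokine ligand genes (rows, grouped by receptor or role between white lines) in the 12 libraries (columns), as log2(CPM + 1). The tumor libraries hold most of the signal, and Ccl5, Ccl3, Ccl4 and Xcl1 at the top are the main ligands read in spleen.

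The comparison of tumor cKO with tumor WT asks how the deletion alters RNA in the tumor samples. No tested ligand gene was called higher in tumor cKO, 10 were called lower and 17 did not pass (edgeR quasi-likelihood test, p adjusted by Benjamini-Hochberg across the 16831 genes, with calls under 0.05). The 10 were Ccl8, Ccl24, Cxcl5, Pf4, Ccl6, Ccl17, Ccl9, Cxcl16, Cxcl9 and Ccl5. They make 37.0% of the 27, against 38.0% of all genes called in either direction, 21.6% called lower and 16.4% called higher. The share called in either direction is thus near the background, while the share called lower is above it and the share called higher is below it. The median log2 change of the ligands was −1.02, against −0.12 for all genes. Groups did not overlap for 13 ligands, all lower in tumor cKO (48.1%, against 27.3% of all genes lower and 23.0% higher without overlap). The summed level of the 38 ligands was 1019, 3233 and 3705 CPM in tumor cKO (lowest, median and highest) and 7789, 9037 and 9833 CPM in tumor WT. All 12 macrophage markers fell in the same libraries, with a median log2 change of −2.78. Dendritic cell markers fell for 4 of 9 tested (sum 59.6 to 141 CPM in tumor cKO and 278.8 to 814 CPM in tumor WT), endothelial markers for 3 of 10 and epithelial or tumor cell markers for 3 of 6. The dendritic sum was mostly Itgax, which averaged 60 CPM in tumor cKO and 410 CPM in tumor WT. Clec9a, Cd209a and Batf3 also fell, while Flt3, Zbtb46, Xcr1, Ccr7 and Fscn1 did not pass (log2 0.43, −0.22, −0.94, 0.82 and −0.21). Of 9 fibroblast markers, 4 fell and Thy1, which T cells also express, rose. The sums of dendritic, endothelial and fibroblast markers were highest in tumor WT replicate 2. The part of these cell types in the ligand values was not tested.

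**Figure D2:**
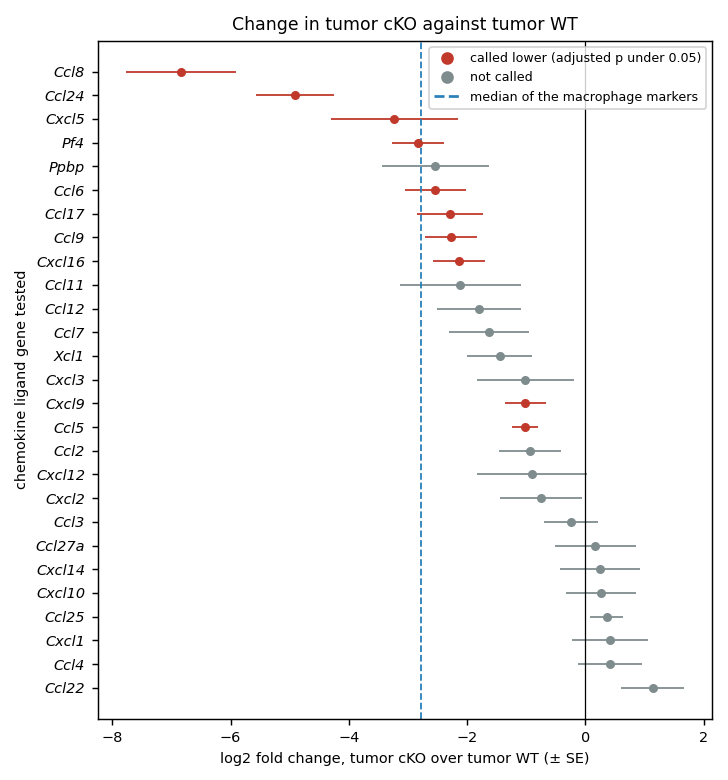
Log2 fold change of the 27 tested ligand genes in tumor cKO over tumor WT (points, bars ± SE, all 12 libraries in the fit), with called genes in red. The 10 called genes lie between −6.84 and −1.01, and only Ccl8, Ccl24, Cxcl5 and Pf4 lie left of the macrophage marker median of −2.78 (dashed line).

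In RPKM the leading ligand genes differed between the tumor groups in order. In tumor cKO, Cxcl2 averaged 530.5 RPKM, Ccl6 281.4, Cxcl1 194.2, Ccl9 78.8 and Ccl3 75.4 RPKM, and the range of each overlapped that of the next. In tumor WT, Ccl6 averaged 1452 RPKM, Ccl24 995, Cxcl2 777.5, Ccl8 529.1, Ccl9 339.2 and Pf4 237.4 RPKM. Neighbours in that order also overlapped, down to Pf4, whose range of 222.4 to 258 RPKM lay above that of Cxcl1, the next gene. Ccl24 was thus ranked 8 in tumor cKO and 2 in tumor WT. Ccl8 was ranked 4 in tumor WT and was at 5.24 RPKM in tumor cKO.

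Among the monocyte attractants, Ccl8 fell furthest of all ligands. In the mouse its product binds CCR8, whereas Ccl2, Ccl7 and Ccl12 encode ligands of CCR2, the receptor that draws inflammatory monocytes. Ccl8 (GRCm38 chromosome 11, 82115185 to 82116799) was at 2.73, 3.49 and 1.47 CPM in tumor cKO, against 104, 597.5 and 163 CPM in tumor WT. The groups lay far apart, and tumor WT replicate 2 was the highest library. The log2 fold change was −6.84 ± 0.93 (SE, adjusted p = 0.00297). Ccl7 was at 26.5, 33.4 and 4.45 CPM in tumor cKO, against 89.3, 47.3 and 62.0 CPM in tumor WT (log2 −1.63 ± 0.68, adjusted p = 0.11). The groups did not overlap, but Ccl7 did not pass. It passed without tumor cKO replicate 3, its lowest library (log2 −1.14, adjusted p = 0.0191; range over all alternatives 1.02e-10 to 0.243). Ccl2, the main CCR2 ligand, averaged 39.5 ± 23.4 CPM in tumor cKO and 75.1 ± 22.0 CPM in tumor WT (SD, n = 3 each), also without overlap and without passing (log2 −0.93 ± 0.53, adjusted p = 0.21). It passed without tumor cKO replicate 3 and tumor WT replicate 2 together (log2 −0.65, adjusted p = 0.0348; range over all alternatives 0.00015 to 0.447). Ccl12 averaged 5.26 ± 3.66 and 18.1 ± 12.2 CPM in tumor cKO and tumor WT and did not pass (log2 −1.80 ± 0.71, adjusted p = 0.0839). It passed in 5 of 22 alternatives, DESeq2 (adjusted p = 0.0279) and both limma fits among them (range over all alternatives 1.22e-05 to 0.303). These 4 genes lie in 1 gene cluster on chromosome 11. There were 0.0555 to 0.116 reads of Ccl8 for each read of Ccl2 in tumor cKO libraries, against 1.04 to 10.1 in tumor WT libraries. For Ccl7 the same ratio was 0.351 to 0.593 in tumor cKO and 0.802 to 0.939 in tumor WT.

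The windows before the starts of Ccl8 and Pf4 are shown because these are the genes with the largest falls among those with an entry in the promoter table from RefSeq (build GRCm38.p6, 250 bases before and 50 after the start). None of the 5 motifs searched was found in either window, nor in that of Ccl6. Letters are in lower case because no motif matched.
Ccl8 (chr11:82114935-82115234, + strand): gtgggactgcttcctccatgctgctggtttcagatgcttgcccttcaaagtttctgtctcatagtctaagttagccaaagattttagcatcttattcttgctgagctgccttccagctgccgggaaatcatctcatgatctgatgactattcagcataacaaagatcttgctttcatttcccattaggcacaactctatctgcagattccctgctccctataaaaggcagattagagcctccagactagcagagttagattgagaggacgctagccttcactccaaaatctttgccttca
Pf4 (chr5:90772185-90772484, + strand): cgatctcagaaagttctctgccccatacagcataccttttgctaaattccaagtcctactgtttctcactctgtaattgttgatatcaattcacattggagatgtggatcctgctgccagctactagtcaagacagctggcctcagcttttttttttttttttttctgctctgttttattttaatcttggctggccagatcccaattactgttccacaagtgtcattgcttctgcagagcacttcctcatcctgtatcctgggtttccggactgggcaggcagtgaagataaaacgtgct

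Both CCR1 ligand genes of rodent myeloid cells, Ccl6 and Ccl9, fell in tumor cKO. Ccl6 (chromosome 11, 83587882 to 83593087) was at 607, 670 and 175 CPM in tumor cKO, against 2375, 4322 and 1716 CPM in tumor WT. Every tumor cKO library lay below every tumor WT library, and the log2 fold change was −2.54 ± 0.52 (adjusted p = 0.00376). Ccl9 (chromosome 11, 83572919 to 83578636) was at 306, 296 and 88.3 CPM in tumor cKO, against 829, 1743 and 763 CPM in tumor WT. The log2 fold change was −2.27 ± 0.45 (adjusted p = 0.00261), again without overlap. In both genes tumor cKO replicate 3 was the lowest library and tumor WT replicate 2 the highest. The receptor gene Ccr1 fell as well (log2 −1.45, adjusted p = 0.0137).

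Of the eosinophil attractants that bind CCR3, Ccl24 (eotaxin-2) fell and Ccl11 (eotaxin) did not pass. Ccl24 (chromosome 5, 135569937 to 135573049) was at 83.9, 42.4 and 13.9 CPM in tumor cKO, against 1198, 1268 and 1751 CPM in tumor WT. The groups were far apart, with a log2 fold change of −4.91 ± 0.67 (adjusted p = 0.000441). Ccl11 averaged 0.714 ± 0.400 CPM in tumor cKO and 3.06 ± 3.87 CPM in tumor WT, where replicate 2 alone reached 7.50 CPM (log2 −2.12 ± 1.02, adjusted p = 0.135). Ccl26 had 1 read in tumor cKO and 13 in tumor WT and was not tested. Ccr3, the receptor gene of these ligands, was at 0.598 to 2.04 CPM in tumor cKO and 2.45 to 22.0 CPM in tumor WT (log2 −3.31, adjusted p = 0.00314). The eosinophil genes Siglecf and Prg2 fell with it (log2 −4.37 and −3.48), and of 7 tested eosinophil and mast cell markers 3 fell and 4 did not pass. Epx, which defines eosinophils, had no reads in tumor cKO and 0.226 to 0.349 CPM in tumor WT. The part of these cells in the fall of Ccl24 was not tested.

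Pf4, which encodes a platelet chemokine that macrophages also express, was at 31.3, 38.1 and 9.22 CPM in tumor cKO, against 177, 195 and 187 CPM in tumor WT. The tumor WT libraries were close to each other, and the log2 fold change was −2.84 ± 0.44 (chromosome 5, 90772435 to 90773383; adjusted p = 0.000592). Platelet markers summed to 6.31 to 8.48 CPM in tumor cKO and 14.7 to 15.9 CPM in tumor WT, with 1 of 5 tested markers lower: Itga2b, an integrin gene of platelets and megakaryocytes, was at 1.38 to 1.71 CPM in tumor cKO and 3.36 to 8.08 CPM in tumor WT (log2 −1.91, adjusted p = 0.0426). Of the platelet markers below the filter, Treml1 was at 0 to 0.24 CPM in tumor cKO and 0.64 to 1.33 CPM in tumor WT. Gp6, the collagen receptor gene of platelets, was at 0.12 CPM or less in all 6 tumor libraries. Gp1bb averaged 1.30 CPM in tumor cKO and 0.642 CPM in tumor WT and did not pass. The part of platelets in the fall of Pf4 was not tested. Cxcl16, which encodes a membrane-anchored ligand of CXCR6, was at 136, 87.2 and 48.7 CPM in tumor cKO, against 230.3, 615.5 and 353 CPM in tumor WT (chromosome 11, 70453983 to 70459984). It fell by 2.14 ± 0.44 on the log2 scale (adjusted p = 0.00348) without overlap of the groups. Cxcl16 shares exonic bases with Zmynd15, so a part of its reads could belong to that gene.

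Of 5 CXCR2 ligands tested, which attract neutrophils, Cxcl5 fell and the other 4 did not pass (median log2 −1.02). Cxcl2, the ligand with the highest RPKM in tumor cKO, was at 1456, 1283 and 418 CPM in tumor cKO, against 2766, 577 and 1970 CPM in tumor WT. The ranges overlapped (log2 −0.75 ± 0.70, adjusted p = 0.449). Cxcl2 passed when tumor cKO replicate 3 and tumor WT replicate 2 were both left out (log2 −0.78, adjusted p = 0.0114; range over all alternatives 1.28e-05 to 0.829). Cxcl1 was at 580, 366 and 104 CPM in tumor cKO, against 448, 103 and 238 CPM in tumor WT (log2 0.41 ± 0.64, adjusted p = 0.647). Its sign turned without tumor cKO replicate 1 (log2 −0.16). Cxcl3 averaged 125 ± 69.3 CPM in tumor cKO and 254 ± 220 CPM in tumor WT (log2 −1.02 ± 0.82, adjusted p = 0.36), and passed without tumor WT replicate 2 (log2 −1.56, adjusted p = 0.0394; range over all alternatives 1.13e-07 to 0.867). In tumor WT replicate 2 these 3 genes were the lowest of their group, where Cxcl3 had 22.7 CPM, compared with 462 CPM in replicate 1 and 276.5 CPM in replicate 3. Cxcl5 was low throughout, at 0.512, 0.12 and 0 CPM in tumor cKO, against 2.50, 2.54 and 1.09 CPM in tumor WT (chromosome 5, 90759360 to 90761624; log2 −3.23 ± 1.07, adjusted p = 0.04). Its call was lost without any 1 of tumor cKO replicates 2 and 3 and tumor WT replicates 1, 2 and 3 (adjusted p 0.0517 to 0.126). Ppbp averaged 0.541 ± 0.588 CPM in tumor cKO and 3.06 ± 1.34 CPM in tumor WT without overlap (log2 −2.54 ± 0.91, adjusted p = 0.0526), and passed without tumor cKO replicate 2 (log2 −3.83, adjusted p = 0.0195; range over all alternatives 0.00226 to 0.157). Neutrophil markers summed to 35.5 to 121 CPM in tumor cKO and 71.5 to 189.5 CPM in tumor WT, with 1 of 8 tested markers lower (Retnlg, log2 −3.11) and 1 higher (Ngp, log2 4.92). Csf3r, the G-CSF receptor gene, was at 10.9 to 27.1 CPM in tumor cKO and 45.0 to 64.9 CPM in tumor WT and did not pass, while Ly6g, which defines neutrophils, was at 0.24 CPM or less in every tumor library. The part of neutrophils in these values was not tested.

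**Figure D3:**
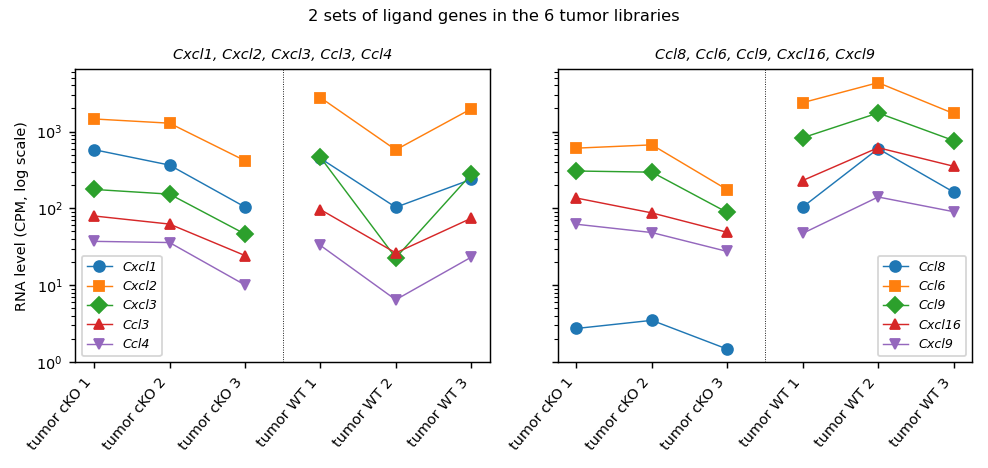
CPM (log axis) of 2 sets of ligand genes, chosen after their values were seen, in each tumor library, with tumor cKO left of tumor WT. On the left, Cxcl1, Cxcl2, Cxcl3, Ccl3 and Ccl4 dip in tumor WT replicate 2, and the groups overlap. On the right, Ccl8, Ccl6, Ccl9, Cxcl16 and Cxcl9 peak in tumor WT replicate 2, and the groups overlap for Cxcl9 alone. Within tumor cKO, both sets are lowest in replicate 3.

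The windows of Cxcl1, Cxcl2 and Cxcl3 are shown because each holds the same 11 letters, a choice made after their matches were seen. Any link of these letters to the RNA levels was not tested. Capitals mark matches to an NF-kB type motif, GGGAANNNCC on either strand, in which N is any base. The run GGGAATTTCCC matches on both strands, so that its matches overlap. It begins 71, 97 and 73 bases before the start of Cxcl1, Cxcl2 and Cxcl3, and Cxcl1 has a second match that begins 90 bases before.
Cxcl1 (chr5:90890995-90891294, + strand): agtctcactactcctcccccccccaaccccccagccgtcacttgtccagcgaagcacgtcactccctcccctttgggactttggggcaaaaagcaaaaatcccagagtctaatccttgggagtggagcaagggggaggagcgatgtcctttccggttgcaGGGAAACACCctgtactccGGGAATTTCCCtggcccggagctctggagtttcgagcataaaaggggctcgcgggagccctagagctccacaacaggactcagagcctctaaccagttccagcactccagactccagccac
Cxcl2 (chr5:90903649-90903948, + strand): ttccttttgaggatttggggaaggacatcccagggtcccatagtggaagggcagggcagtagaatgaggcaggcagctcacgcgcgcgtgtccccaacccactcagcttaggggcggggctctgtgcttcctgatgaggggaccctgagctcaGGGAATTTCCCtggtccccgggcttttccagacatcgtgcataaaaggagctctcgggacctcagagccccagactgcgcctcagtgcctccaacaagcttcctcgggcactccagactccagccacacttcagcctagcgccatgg
Cxcl3 (chr5:90785851-90786150, + strand): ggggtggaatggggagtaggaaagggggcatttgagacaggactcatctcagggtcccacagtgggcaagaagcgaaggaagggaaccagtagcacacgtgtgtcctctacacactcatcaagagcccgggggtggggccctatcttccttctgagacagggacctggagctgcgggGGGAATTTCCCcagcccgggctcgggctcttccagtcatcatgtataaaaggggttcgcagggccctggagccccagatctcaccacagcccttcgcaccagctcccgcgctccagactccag
Of the 27 tested ligands, 19 had a promoter entry, and 5 of these (Cxcl1, Cxcl2, Cxcl3, Cxcl9 and Cxcl10) held the NF-kB type motif, against 5.78% of all 32851 promoters of that length. Ccl3, which like Cxcl1, Cxcl2 and Cxcl3 was lowest of its group in tumor WT replicate 2, did not hold it. Cxcl9, highest of its group there, did. The interferon type motif GAAANNGAA was found in 4 (Ccl3, Cxcl9, Cxcl10 and Cxcl14), against 8.56% of all promoters. AP-1, TGANTCA, was found in 4, against 7.81%. The STAT motifs TTCNNNGAA and TTCNNNNGAA, which cannot match at the same place, were found in 2 and 1, against 8.30% and 6.95%, and Ccl17 held both. Of the 10 genes called lower, Ccl24 and Cxcl5 had no entry. Each ligand was counted by its first entry only, whereas the shares of all promoters count every entry.

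Of the CXCR3 ligands, which draw T and NK cells, Cxcl9 fell and Cxcl10 did not pass. Cxcl9 was at 62.1, 48.4 and 27.5 CPM in tumor cKO, against 47.3, 140.5 and 90.5 CPM in tumor WT (chromosome 5, 92321347 to 92328079). The groups overlapped, and the log2 fold change was −1.02 ± 0.35 (adjusted p = 0.0372). The call was lost in 10 of 12 fits with 1 library left out, namely each spleen library, tumor cKO replicates 2 and 3 and tumor WT replicates 2 and 3 (adjusted p 0.00389 to 0.16 over the 12). Without tumor WT replicate 2 its log2 value was −0.58. It was also lost without a composition factor (log2 −0.85). Cxcl10 averaged 15.0 ± 7.96 CPM in tumor cKO and 12.5 ± 3.39 CPM in tumor WT (log2 0.26 ± 0.59, adjusted p = 0.756), and shares exonic bases with Art3. Cxcl11, annotated as a polymorphic pseudogene, had 81 reads in tumor cKO and 24 in tumor WT and was not tested.

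Of the CCR4 ligands, which attract regulatory and type 2 helper T cells, Ccl17 fell and Ccl22 did not pass. Ccl17 (chromosome 8, 94810453 to 94812036) was at 2.18, 1.14 and 1.47 CPM in tumor cKO, against 5.76, 11.2 and 6.57 CPM in tumor WT. The groups did not overlap, and Ccl17 fell by 2.29 ± 0.55 on the log2 scale (adjusted p = 0.00771). When tumor cKO replicate 3 and tumor WT replicate 2 were both left out it did not pass (log2 −1.87, adjusted p = 0.062; range over all alternatives 3.32e-05 to 0.062). Ccl22 was at 13.3, 3.25 and 5.50 CPM in tumor cKO, against 3.72, 3.27 and 3.01 CPM in tumor WT. The groups overlapped, replicate 1 of tumor cKO was the highest, and Ccl22 did not pass (log2 1.14 ± 0.53, adjusted p = 0.122). Ccr4 itself had at most 0.465 CPM in tumor cKO and 0.423 CPM in tumor WT and was not tested.

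The ligands that activated NK cells and T cells are known to secrete were the main ligands in spleen. In RPKM the order was the same in both spleen groups, with Ccl5 first (48.1 ± 9.59 in cKO and 47.7 ± 7.11 in WT), then Ccl3 (29.8 ± 3.50 and 25.7 ± 3.23), Xcl1 (18.9 ± 6.15 and 17.5 ± 2.39) and Ccl4 (16.4 ± 3.46 and 17.2 ± 0.170). The ranges of Xcl1 and Ccl4 overlapped, and those of Ccl5, Ccl3 and Xcl1 did not. Ccl6 followed at 3.31 RPKM in spleen cKO and 1.43 RPKM in spleen WT. Ccl5 (chromosome 11, 83525778 to 83530518) was the 1 member of this set that fell in tumor cKO. It was at 5.04, 4.21 and 3.18 CPM in tumor cKO, against 8.20, 9.70 and 7.05 CPM in tumor WT. The log2 fold change was −1.01 ± 0.22 (adjusted p = 0.00306), without overlap. In spleen Ccl5 was at 39.6, 39.6 and 55.5 CPM in cKO, against 44.2, 38.9 and 52.5 CPM in WT. Ccl3 was at 79.5, 62.4 and 24.3 CPM in tumor cKO, against 96.5, 26.3 and 74.2 CPM in tumor WT (log2 −0.24 ± 0.45, adjusted p = 0.705), with a sign that turned without tumor cKO replicate 3 (0.12) or tumor WT replicate 1 (0.15). Ccl3 in spleen was at 25.5, 20.1 and 21.2 CPM in cKO, against 19.3, 17.0 and 22.0 CPM in WT. Ccl4 averaged 27.7 ± 15.3 CPM in tumor cKO and 20.9 ± 13.4 CPM in tumor WT (log2 0.42 ± 0.53, adjusted p = 0.571). Xcl1, whose product attracts cross-presenting dendritic cells through XCR1, was at 3.03, 2.22 and 1.74 CPM in tumor cKO, against 11.8, 1.55 and 5.97 CPM in tumor WT. The groups overlapped, since tumor WT replicate 2 was the lowest of the 6 libraries, and Xcl1 did not pass (log2 −1.45 ± 0.55, adjusted p = 0.0551), but did without tumor WT replicate 2 (log2 −1.92, adjusted p = 0.000851; range over all alternatives 0.000788 to 0.342). Xcl1 shares exonic bases with Gm20743. The 10 NK markers summed to 40.2 to 58.0 CPM in tumor cKO, 54.8 to 183 CPM in tumor WT, 1273 to 1619 CPM in cKO spleens and 1254 to 1619 CPM in WT spleens, with 8 of 10 lower in tumor cKO. The T-cell markers Cd3d, Cd3g and Trac rose in tumor cKO while Trbc1 and Foxp3 fell, and the part of either cell type in the values of Ccl5 and Xcl1 was not tested.

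**Figure D4:**
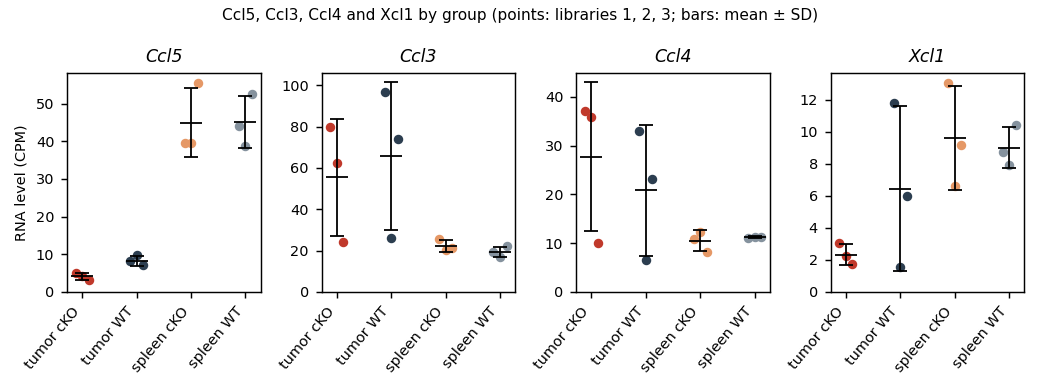
CPM of Ccl5, Ccl3, Ccl4 and Xcl1 in each library of the 4 groups (points, left to right replicates 1 to 3), with the mean ± SD of 3 libraries. Ccl5 stands at 3.18 to 9.70 CPM in the tumor libraries and 38.9 to 55.5 CPM in the spleen libraries, whereas Ccl3 ranges from 24.3 to 96.5 CPM among tumor libraries and from 17.0 to 25.5 CPM among spleen libraries.

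Homeostatic ligands were low. Cxcl12, the CXCR4 ligand of stromal cells, averaged 3.87 ± 3.03 CPM in tumor cKO and 7.14 ± 6.50 CPM in tumor WT (log2 −0.91 ± 0.93, adjusted p = 0.473). Cxcl14 (log2 0.25), Ccl25 (0.36) and Ccl27a (0.17) did not pass either. Ccl25 and Ccl27a share exonic bases with Elavl1 and Il11ra1, and Ccl27a has near-identical copies in the genome, so their counts are uncertain. The 11 genes below the filter were Ccl1, Ccl20, Ccl21a, Ccl26, Ccl27b, Ccl28, Cx3cl1, Cxcl11, Cxcl13, Cxcl15 and Cxcl17. Apart from Cxcl11, their highest group mean was 0.52 CPM, that of Ccl1 in tumor WT.

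To see which ligands fell by more than the sum of the 12 macrophage markers, each level was divided by that sum in the same library. The ratio is a description with no test. Only Ccl8 and Ccl24 had a lower ratio in every tumor cKO library than in any tumor WT library. This is 2 of 27 ligands, against 0.44% of all genes tested. Ccl8 was at 0.611 to 0.928 CPM per 1000 CPM of markers in tumor cKO and 7.36 to 20.9 in tumor WT. For Ccl24 the ratio was 8.74 to 18.8 in tumor cKO and 44.3 to 89.3 in tumor WT. Ccl6, Ccl9, Pf4 and Ccl17 overlapped between the groups on this scale, with Ccl6 at 110 to 171 in tumor cKO and 87.6 to 168 in tumor WT. The ratio was higher without overlap for 14 ligands, Cxcl16, Cxcl9, Ccl5, Cxcl1 and Cxcl2 among them, against 84.2% of all genes. Ccl8 and Ccl24 remained in this position when Apoe and Lyz2 were left out of the sum, with Csf1r alone as the measure, and without any 1 of the 6 tumor libraries. Pf4 joined them with Csf1r alone, Cxcl5 without tumor cKO replicate 1 and Ppbp without tumor cKO replicate 2. The markers themselves fell unequally, from a log2 fold change of −5.91 for Cd163, a scavenger receptor gene of tissue macrophages, to −1.19 for Fcgr1, an IgG receptor gene. Ccl24 (log2 −4.91) thus fell by less than Cd163, and Ccl8 (log2 −6.84) by more.

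**Figure D5:**
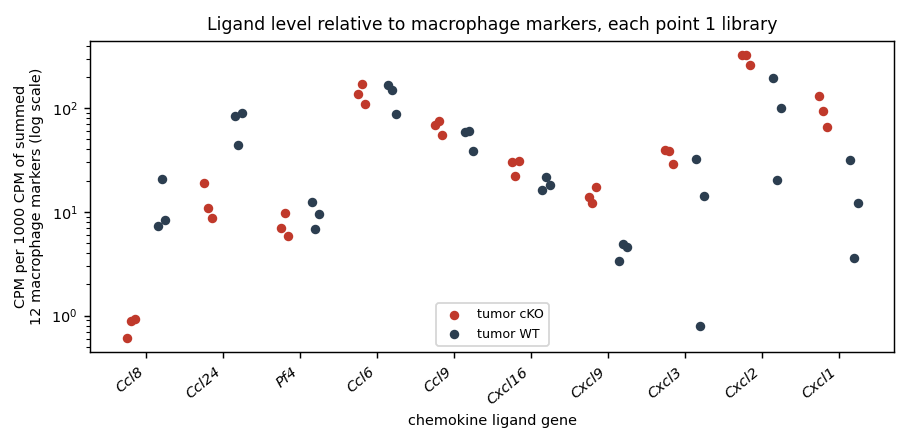
CPM of 10 ligand genes per 1000 CPM of the summed macrophage markers (log axis), with each point 1 tumor library and tumor cKO left of tumor WT. Ccl8 and Ccl24 lie lower in tumor cKO (0.611 to 0.928 and 8.74 to 18.8) than in tumor WT (7.36 to 20.9 and 44.3 to 89.3), Ccl6 and Pf4 overlap, and Cxcl9, Cxcl2 and Cxcl1 lie higher.

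Among 17 chemokine receptor genes, 14 were tested in tumor, of which 4 fell, 0 rose and 10 did not pass (median log2 −0.66, against −0.12 for all genes). The share called, 28.6%, lies between the 21.6% of all genes called lower and the 38.0% called in either direction. The 4 were Ccr1, Ccr2, Ccr3 and Cxcr4. Ccr2, the receptor of Ccl2, Ccl7 and Ccl12, was at 17.1 to 44.5 CPM in tumor cKO and 94.9 to 133 CPM in tumor WT (log2 −1.74, adjusted p = 0.000849). Cxcr4 was at 41.5 to 48.0 and 57.8 to 99.5 CPM in tumor cKO and tumor WT (log2 −0.87, adjusted p = 0.00961). Monocytes and macrophages are known to express Ccr1 and Ccr2. None of the 4 atypical receptor genes tested passed, with log2 values of −0.26 (Ackr2), −0.63 (Ackr3), 0.28 (Ackr4) and −0.49 (Ccrl2).

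In spleen, no ligand gene passed between cKO and WT. The 27 tested gave 0 calls by edgeR and 0 by DESeq2, against 0.0297% of all genes called by edgeR, and 1 ligand, Ccl9, had an unadjusted p under 0.05 (0.0237; 4.66% of all genes). In these libraries 20 of the 38 ligand genes had no reads in spleen cKO and 19 had none in spleen WT. Among the 27 tested, Ccl2, Ccl7, Ccl8, Ccl11, Ccl12, Ccl22, Cxcl2, Cxcl5, Cxcl14 and Ppbp had no reads in either spleen group. They could be neither called nor separated in spleen, yet count among the 27. Ccl9 was at 3.52, 4.01 and 5.26 CPM in spleen cKO, against 1.37, 1.13 and 1.70 CPM in spleen WT (log2 1.62 ± 0.62, adjusted p = 1). Ccl6 was at 5.06, 8.62 and 3.55 CPM in spleen cKO, against 1.97, 2.11 and 3.50 CPM in spleen WT (log2 1.18 ± 0.64, adjusted p = 1). Cxcl16 averaged 1.92 ± 0.549 CPM in spleen cKO and 0.818 ± 0.589 CPM in spleen WT (log2 1.18 ± 0.73, adjusted p = 1). In these 3 genes every cKO library was above every WT library, which is 11.1% of the ligands, against 5.94% of all genes. In no ligand was every cKO library below every WT library, which held for 5.43% of all genes. The ligands without reads in spleen could show neither pattern, so these shares are not a like comparison. Ccl9 passed when tumor cKO replicate 3 and tumor WT replicate 2 were both left out, which keeps all 6 spleen libraries (log2 1.63, adjusted p = 0.00111; range over all alternatives 6.1e-10 to 1). The summed macrophage markers given above did not overlap either, being higher in spleen cKO (median log2 1.26, 0 of 12 called), and their part was not tested.

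The effect of cKO differed between tumor and spleen for 4 of the 27 ligands (14.8%), all with a more negative effect in tumor. Of all genes, 10.6% were called in that direction, 7.68% in the other and 18.3% in either, so the share of ligands is near that of all genes. The difference of the effects, tumor minus spleen, was −3.90 ± 0.75 for Ccl9 (adjusted p = 0.00694), −3.71 ± 0.82 for Ccl6 (adjusted p = 0.0127), −3.32 ± 0.84 for Cxcl16 (adjusted p = 0.0213) and −1.01 ± 0.30 for Ccl5 (adjusted p = 0.034). Ccl24 had a larger difference that did not pass (−5.30 ± 1.78, adjusted p = 0.0663). It passed in 7 of 21 alternatives, namely by DESeq2 (adjusted p = 0.00484), by limma with either pseudocount, without a filter, and without tumor cKO replicate 1 or 3 or spleen cKO replicate 1 (range over all alternatives 6.76e-15 to 0.269). For ligands without reads in spleen, Ccl8 among them, the edgeR fit gave no usable standard error of the difference. Other tools called it for Ccl8, at −6.77 by DESeq2 (adjusted p = 0.00838) and at −6.28 and −6.03 by limma on log2(RPKM + 0.1) and log2(RPKM + 1), values that rest on the tumor libraries because every spleen library is at 0. The call of Ccl5 was lost in 6 of 12 fits with 1 library left out, namely tumor cKO replicates 2 and 3, tumor WT replicate 1, spleen cKO replicate 3 and spleen WT replicates 1 and 2 (adjusted p 0.0237 to 0.0995 over the 12). It was also lost without a composition factor (adjusted p = 0.0677). That of Cxcl16 was lost without spleen cKO replicate 1 (log2 −3.08, adjusted p = 0.0621; range over all alternatives 3.31e-22 to 0.0621).

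Most ligands were higher in tumor than in spleen in both genotypes. In cKO, 23 of 27 were called higher in tumor and 2 lower (31.7% and 28.8% of all genes, 60.5% in either direction), and in WT 22 were higher and 1 lower (33.9% and 28.1% of all genes, 62.0% in either direction). A gene could pass the filter through tumor libraries alone, and such a gene could hardly be called lower in tumor. Of the 38 ligands, 24 in tumor cKO and 26 in tumor WT averaged at least 1 CPM, against 8 in spleen cKO and 7 in spleen WT. The counts of ligands called higher are therefore largely set by the filter. Ccl5 was lower in tumor in both (log2 −3.44 ± 0.23 in cKO, adjusted p = 7.82e-08; −2.43 ± 0.22 in WT, adjusted p = 8.23e-07). Xcl1 was lower in tumor in cKO (log2 −2.04 ± 0.56, adjusted p = 0.00696) and did not pass in WT (−0.50 ± 0.53, adjusted p = 0.432), where it passed without tumor WT replicate 1 (log2 −1.29, adjusted p = 0.0431; range over all alternatives 0.0431 to 0.993). Whether this differs between genotypes is the same test as above and did not pass for Xcl1 (difference −1.55 ± 0.76, adjusted p = 0.178), but did without tumor WT replicate 2 (−2.03, adjusted p = 0.00834; range over all alternatives 0.00834 to 0.479). Cxcl2 had no reads in any spleen library, and set against 3 counts over the group it was at least 12600-fold higher in tumor in cKO and at least 18000-fold in WT. This floor is meant to cover counting error only. If both mates of a pair were counted, it is too low and these bounds are too high. By the same floor, Ccl2 was at least 462-fold higher in cKO and 875-fold in WT. For Ccl8 the bounds were at least 30.5-fold in cKO and 4580-fold in WT. Some calls in cKO were lost when 1 library was left out. The call of Ccl8 was lost without any 1 of the 6 cKO libraries (adjusted p up to 0.104), and that of Ccl11 without spleen cKO replicate 1 or 3 (up to 0.0511). Ccl3 (log2 1.32) did not pass without tumor cKO replicate 1 or 2 or any 1 spleen cKO library (up to 0.114). Ccl4 (log2 1.40) passed only without tumor cKO replicate 3 or tumor WT replicate 1 or 2 (up to 0.135 otherwise). Ccl25 (log2 0.74) did not pass without tumor cKO replicate 1 or 3 or spleen cKO replicate 1 or 3 (up to 0.175). Cxcl5 did not pass in cKO but did without tumor cKO replicate 3 (adjusted p = 0.0223; range over all alternatives 0.0197 to 0.384), and Ccl4 passed in WT without tumor WT replicate 2 (log2 1.34, adjusted p = 0.0253; range 2.59e-05 to 0.576).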

How the data were processed

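RNA was measured by bulk sequencing in 12 libraries of mouse spleen and tumor samples. The authors deposited counts, whole reads per gene, and RPKM values, per the file headers, which matched RPKM computed from the counts within a relative difference of 0.000138. Reads were mapped to mm10 (GRCm38) with TopHat2 2.0.6, per the submitters' processing notes. Which program counted the reads, and whether it used strand, is not given in the sources used here. Between 68.8% and 73.3% of counts from 1 to 49 were even, as when both mates are counted, so counting noise is larger than the counts imply. Floors are meant to cover counting error only and would be too low in that case. Gene positions are those of the count table, 36 of 38 the same as in GENCODE vM21.

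Counts were fitted in R 4.3.3 with edgeR 4.0.16: filterByExpr, TMM factors (0.896 to 1.055), a robust quasi-likelihood model with 1 mean per group over all 12 libraries (8 residual degrees of freedom, common dispersion 0.0801), two-sided tests, and Benjamini-Hochberg adjustment over 16831 genes. Adjusted p-values come from this fit where no other tool is named. Levels are CPM over scaled totals. A group without reads was set against 3 counts over the group. Alternatives were DESeq2 1.42.0, limma 3.58.1 on log2 RPKM, other scaling and filters, a replicate block and leaving out libraries. For Ccl2, Ccl7, Ccl12, Cxcl2, Cxcl3 and Xcl1 in tumor, the lowest adjusted p over the alternatives came from edgeR without a filter. The same holds for Ccl9 in spleen and for the difference in Ccl24. Without a filter, 194 of all genes were called higher in spleen cKO, against 5 in the main fit.

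The ligand rule and the marker, receptor and motif lists were chosen with earlier results of these data known. Values in every library are given for ligands called between cKO and WT and for the 10 of highest group mean RPKM, and others where they bear on these. The leaving out of 2 tumor libraries together and the other denominators of the marker ratio were chosen after seeing the data. The deleted gene and 1 gene of the receptor list are not reported here, and the level of the deleted gene was not used to check the genotypes.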

Additional observations from a re-analysis of the deposited data

Results flagged for a closer look

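The effect of cKO differed between tumor and spleen, by the test of the difference itself in edgeR, for 4 ligand genes. They make 14.8% of the 27 tested, near the share of all genes (10.6% called in that direction and 18.3% in either). For Ccl9 the difference (tumor minus spleen, log2) was −3.9 (adjusted p = 0.00694), with effects of −2.27 in tumor and 1.62 in spleen. For Ccl6 it was −3.71 (adjusted p = 0.0127), with effects of −2.54 and 1.18. For Cxcl16 it was −3.32 (adjusted p = 0.0213), with effects of −2.14 and 1.18. For Ccl5 it was −1.01 (adjusted p = 0.034), with effects of −1.01 and −0.01. The call was lost in 11 of 21 alternatives for Ccl5 and in 1 for Cxcl16. In none of the 4 did the effect in spleen pass on its own. The summed macrophage markers moved in the same directions as the first 3 genes, lower in tumor cKO than in tumor WT and higher in spleen cKO than in spleen WT, and their part was not tested.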

How the results depend on the processing

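Of 22 alternatives in tumor, all called Ccl8, Ccl24, Pf4, Ccl6, Ccl9, Cxcl16 and Ccl5 lower. Without a filter on low counts, 1 ligand (Cxcl1) was called higher and 18 lower in tumor cKO, against 0 and 10. Of all 33100 genes in that fit, 2572 were called higher and 3946 lower. In spleen cKO 3 ligands were higher (Ccl6, Ccl9 and Cxcl16), beside 194 of all genes higher and 36 lower. The difference between tissues was called for 7 ligands, against 4, beside 1255 of all genes higher and 2520 lower. By limma on log2(RPKM + 1) the difference was called for 9, beside 2380 of all 16831 genes higher and 1601 lower. Without tumor WT replicate 2 and tumor cKO replicate 3 together, 1 ligand (Ccl9) was higher in spleen cKO, beside 34 of all 17157 genes. In the same fit 12 ligands were lower in tumor cKO, beside 3154 of all genes lower and 2462 higher. Ccl2, Ccl7, Cxcl2, Cxcl3 and Xcl1 were added and Ccl17, Cxcl5 and Cxcl9 lost. Ligands lower in tumor WT than in spleen WT numbered 1 to 2 with 1 library left out. Ligands whose marker ratio was lower in tumor cKO numbered 2 to 3 over the leave-outs (main 2) and 3 with Csf1r alone.

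Signs turned only for effects that did not pass. With 1 library left out, log2 values in tumor ran from −0.62 to 0.15 for Ccl3 and from −0.16 to 1.04 for Cxcl1, and in spleen from −0.32 to 1.29 for Ccl24, from −0.19 to 0.12 for Ccl5 and from −0.17 to 1.74 for Cxcl1. The difference for Cxcl1 ran from −1.32 to 0.59, and was 0.43 and 0.18 by limma with pseudocounts of 1 and 0.1. Ccl5 in spleen was 0.012 without a composition factor and 0.003 by limma with either pseudocount. Ccl4, Cxcl10, Cxcl14 and Ccl27a in tumor also changed sign with 1 library left out. The causes were not tested. Scaling moved the split of all tumor calls: 43.1% were higher in cKO with the composition factor and 57.5% without it, and the median of all genes was −0.12 and 0.06.

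Libraries with the same replicate number did not vary together (correlations of deviations −0.088 to 0.111). Whether equal numbers mark a shared animal or day is not stated. With the replicate block, 12 ligands were called lower in tumor (Ccl12 and Ppbp added), beside 3368 of all 16831 genes lower and 2601 higher. In spleen 0 ligands were called, beside 2 of all genes. The difference was called for 3, without Ccl5, beside 1143 of all genes higher and 1649 lower. In tumor cKO against spleen cKO, Ccl25 and Ccl4 were lost. Depth limits the spleen values: for ligands without reads there the edgeR fit gives no usable error of the difference between tissues.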

Other observations

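Of the 38 ligand genes, 24 lie in 5 groups of neighbours on the genome (GRCm38), and neighbours had unequal values in tumor. On chromosome 11, from 82035571 to 82305690, Ccl2, Ccl7, Ccl11, Ccl12 and Ccl8 had log2 fold changes of −0.93 to −6.84 in tumor cKO over tumor WT, and 1 of these 5 was called lower. Further along, from 83525778 to 83664683, Ccl5, Ccl9 and Ccl6 were called lower while Ccl3 (−0.24) and Ccl4 (0.42) did not pass. On chromosome 5, from 90759360 to 90905938, Cxcl5 and Pf4 were called lower, and Ppbp (−2.54), which lies between them, Cxcl3 (−1.02), Cxcl1 (0.41) and Cxcl2 (−0.75) did not pass. On the same chromosome, from 92321347 to 92365485, Cxcl9 was called lower and Cxcl10 (0.26) did not pass. On chromosome 8, from 94745590 to 94812036, Ccl17 was called lower and Ccl22 (1.14) did not pass.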
